A study of Mus musculus with 6 samples.

Results

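The Regnase, ZFP36 and Roquin genes encode RNA-binding proteins that shorten the life of inflammatory mRNAs. The 9 genes of these 3 families were taken by their symbols from a table of 21878 genes: Zc3h12a, Zc3h12b, Zc3h12c and Zc3h12d (Regnase), Zfp36, Zfp36l1 and Zfp36l2 (ZFP36), and Rc3h1 and Rc3h2 (Roquin). RNA had been sequenced from mouse tumour-associated macrophages, sorted 14 days after injection of MC38, a colon carcinoma line. The TRMT61A-KO libraries (KO) came from Trmt61af/fLysmCre mice, which carry floxed Trmt61a alleles and a Cre recombinase driven by the lysozyme M locus in myeloid cells. The TRMT61A-WT libraries (WT) came from Trmt61af/f mice, which carry the same floxed alleles without the Cre. Each group held 3 libraries, and both bore MC38 tumours. The LysM locus is active in neutrophils and monocytes as well as macrophages, and the labels say nothing of the sorting gate, the age and sex of the mice or the animal behind each replicate. The p-values therefore rest on how far libraries of a group differ, and that spread could be technical.

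Regnase proteins are endonucleases that cut mRNAs at stem-loops in the 3′ untranslated region (3′ UTR). ZFP36 proteins carry a pair of CCCH zinc fingers that bind AU-rich elements, and Roquin proteins bind stem-loops through their ROQ domain, and both recruit the CCR4-NOT deadenylase. In macrophages these proteins limit the mRNAs of cytokines such as tumour necrosis factor and interleukin 6. Several members also act on their own mRNA, and their protein levels are set by phosphorylation, ubiquitination and cleavage, none of which these libraries measured.

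The sequence elements that these proteins read are shown first, because they connect the members with the target genes described afterwards. The AU-rich nonamer TTATTTATT, the high-affinity site of the ZFP36 zinc fingers, was looked for on the sense strand of the longest annotated 3′ UTR of each gene (GENCODE M21). It stood in all 3 ZFP36 genes and in both Roquin genes, 1 copy in each, and in none of the 4 Regnase genes. Of 11686 tested genes with a 3′ UTR, 8.2% held it. In these 30-base stretches, written 5′ to 3′ with T for U, the capitals mark the nonamer.
Zfp36: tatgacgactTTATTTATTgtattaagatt
Zfp36l1: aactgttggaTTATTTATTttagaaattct
Zfp36l2: actatttaacTTATTTATTatcttgtgaaa
Rc3h1: actttactcaTTATTTATTgagatgaggag
Rc3h2: caaagacattTTATTTATTttactctgtaa

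Stem-loops were searched as 5 perfect Watson-Crick pairs closing a loop of TAT or TGT. Such a stem-loop stood in 1 place in Zc3h12a, in 4 places in Rc3h1 and in 2 in Rc3h2. None was found in the other 6 members, and 12.5% of the tested genes with a 3′ UTR held at least 1. The 3′ UTRs of the Roquin genes were long, 7181 and 5331 bases, against a median of 1172.5 over the tested genes, and a longer 3′ UTR offers more places for a match. Of their stem-loops, 2 stretches of 13 bases are the same in both Roquin genes. ATATATATTATAT stood in 44 of the 11686 3′ UTRs and the other in 6. The latter is shown with the stem-loop of Zc3h12a, with the stem and loop in capitals.
Zc3h12a: ggcgagatTTAAATATTTTAAatgaaaaag
Rc3h1: agccaataACTTCTGTGAAGTtgccttttc
Rc3h2: tttaattaACTTCTGTGAAGTtgtttactc

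Part of the known target genes carry the same elements: 12 of 20 tested tristetraprolin targets held the nonamer, and 8 of 15 Regnase-1 targets and 9 of 12 Roquin targets a stem-loop of this form. Il6 and Il12b held neither, and the examples shown are carriers. Tnf, which encodes tumour necrosis factor, had 5 overlapping copies of the nonamer and 1 stem-loop. Cxcl1, a chemokine for neutrophils, had 2 nonamers, and Il23a, a subunit of interleukin 23, had 1. Nfkbiz and Nfkbid, which encode nuclear IκB proteins, and Icos, a costimulatory receptor of T cells, each had 2 stem-loops and no nonamer. In the lines up to Il23a the capitals mark the nonamer, or in Tnf overlapping copies of it up to the end of the stretch, and 1 of the sites of Cxcl1 is shown. From the second Tnf line on, they mark a stem and loop.
Tnf: tttgcacttaTTATTTATTATTTATTTATT
Cxcl1: agaatgtcagTTATTTATTgaaagtcgtct
Il23a: tagatgatggTTATTTATTctatttataag
Tnf: cagacatgTTTTCTGTGAAAAcggagctga
Nfkbiz: tgtaagttGTTTCTATGAAACaaacccatt
Nfkbid: tctaggtgATTTCTGTGAAATcgagcccac
Icos: ggtgcctaTTTCCTATGGAAAtgaagactg

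Library totals ran from 18839026 to 20313597 counts. CPM is the read count scaled to the size of its library. Trmt61a, the deleted gene, fell in KO as labelled: its mean was 2.11 ± 0.366 CPM there, against 7.45 ± 0.532 CPM in WT (SD, n = 3 per group; edgeR adjusted p = 0.0426). On the first principal component KO replicate 2 was far from the rest, with a score of 29.4 against a range of -18 to 5.26. WT replicate 1 stood at the other end with -18, followed by KO replicate 3 with -6.46. It was also highest on the second component, at 20.8 against a range of -15.6 to 11.9. The sum of 10 macrophage markers was 11632 to 13077 CPM in WT and 11165 to 11815 CPM in KO. The 5 epithelial tumour cell markers summed to between 77 and 141 CPM, with means of 115 CPM for WT and 121 CPM for KO. Of these, Cdh1 passed the filter on low counts, and Epcam, Krt8, Krt18 and Krt19 did not. The sum therefore rests largely on Cdh1 and is not a measure of tumour cell content by 5 markers.

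The members covered a wide range of levels. Compared per length, as CPM per kilobase of exon, Zfp36 was highest at 292 ± 28.4 (SD over 6 libraries), followed by Zfp36l1 at 134 ± 9.83, Zfp36l2 at 95.7 ± 18 and Zc3h12a at 82.6 ± 19.3. These 4 lay above 95.0% or more of the tested genes. Rc3h1 followed at 6.93 ± 0.472 and Zc3h12c at 4.91 ± 2.21, and Zc3h12d at 1.77 ± 0.267 and Rc3h2 at 1.55 ± 0.15 were lower still. Zc3h12b, the X-linked member, was at 0.044 ± 0.0185. The macrophage libraries thus held mostly the mRNA of Zc3h12a within the Regnase family, 92.3% ± 1.7 of the family's level per length in WT and 92.8% ± 0.332 in KO.

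Neighbours in this order were compared within libraries. In 5 of the 8 neighbouring pairs the higher gene was higher in 6 of 6 libraries: Zfp36 over Zfp36l1 by 2.16-fold, Zfp36l1 over Zfp36l2 by 1.42-fold, Zc3h12a over Rc3h1 by 11.67-fold, Zc3h12c over Zc3h12d by 2.61-fold and Rc3h2 over Zc3h12b by 37.29-fold. For each of the 5, the two-sided exact sign-flip permutation test gave p = 0.0312, the smallest that 6 libraries allow, and 0.05 after Benjamini-Hochberg adjustment over the 8 pairs, which is on the threshold and not under it. Rc3h1 over Zc3h12c (adjusted exact p = 0.125) and Zc3h12d over Rc3h2 (adjusted exact p = 0.25), each higher in 5 of 6 libraries, did not pass. The test and the ratios pool the genotypes. Rc3h1 and Zc3h12c had means of 6.6 and 6.48 CPM per kilobase in WT, and of 7.27 and 3.34 in KO. For Zfp36l2 and Zc3h12a the order was opposite in the genotypes, so a test over all 6 libraries (adjusted exact p = 0.562) does not bear on it, and their values are given by genotype further on. The place of Rc3h2 depends on its length. Its exons cover 19.6 kb together and 8.95 kb in its longest transcript, and with the latter it came to 3.4 CPM per kilobase and above Zc3h12d.

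**Figure D1:**
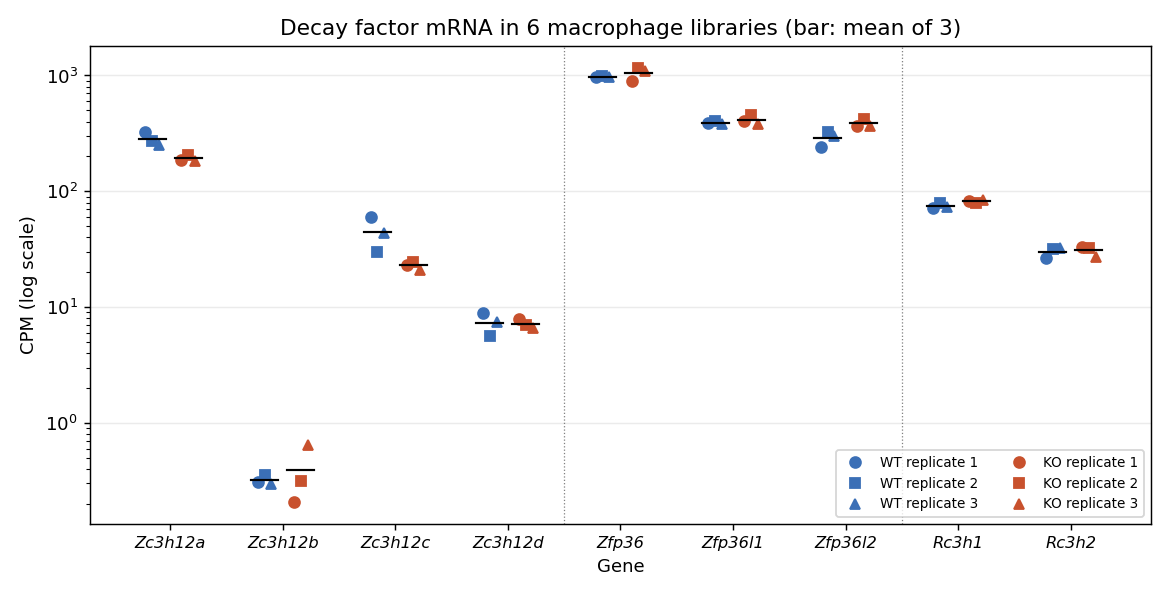
CPM of the 9 decay factor genes on a log axis, with 1 point per library (blue WT, red KO, the symbol giving the replicate number) and a bar at the mean of 3. The KO points of Zc3h12a and Zc3h12c lie below all of their WT points, those of Zfp36l2 lie above, and the other genes overlap.

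Between the genotypes, Zc3h12a and Zc3h12c were lower in every KO library than in any WT library and Zfp36l2 was higher, while no member passed edgeR's test over all genes. The families were selected on results of this comparison, the KO and WT levels in these libraries, so the members' values are a description and carry no evidence beyond it. Of the 9 members, 8 passed the filter on low counts. Of these 8, edgeR called 0 at an adjusted p under 0.05, where 0.0165% of all 12136 tested genes were called, and DESeq2 called 2 as lower (Zc3h12a and Zc3h12c), where it called 0.239% of all genes, 0.173% lower and 0.0659% higher. At an unadjusted p under 0.05 there were 3 members (these and Zfp36l2), with 6.92% of all genes. The KO libraries lay wholly outside the WT range for the same 3 of 8 members, as for 12.4% of all tested genes. Of these 3, 2 lay below (6.3% of all genes) and 1 above (6.11%). All 3 tested Regnase genes had a negative log2 fold change of KO over WT, and all 5 ZFP36 and Roquin genes a positive one, with a median over the 8 of 0.0605 against -0.000877 over all genes, of which 6042 of 12136 were positive. The signs of Zc3h12d and Rc3h2, both near 0, turned with single libraries left out. In bulk RNA, fewer cells of a type and less RNA per cell cannot be told apart.

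Zc3h12a encodes Regnase-1, the family member best known for degrading Il6 and Il12b mRNA in macrophages (NCBI Gene 230738, chromosome 4, 125118423 to 125127840, minus strand, GRCm38). It was at 325, 273 and 253 CPM in the WT libraries and at 187, 206 and 183 CPM in the KO libraries. The lowest WT library lay well above the highest KO library, and WT replicate 1 was the highest of all. The mean was 284 ± 36.9 CPM in WT and 192 ± 12.3 CPM in KO, lower by 32.2% (log2 -0.56, SE 0.0985, edgeR adjusted p = 0.438). By p-value it ranked 5 of the 12136 genes. DESeq2 passed it (adjusted p = 4.68e-04), and over 16 alternatives the log2 value stayed between -0.64 and -0.45 with adjusted p from 4.68e-04 to 0.949. The smallest difference was without WT replicate 1.

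Zc3h12c encodes Regnase-3, a relative that is expressed in macrophages and endothelial cells (NCBI Gene 244871, chromosome 9, 52111344 to 52168572, minus strand). It was at 59.7, 29.8 and 43.6 CPM in WT and at 22.9, 24.6 and 21.1 CPM in KO. The KO libraries were close together, while the WT libraries spread about their mean with a coefficient of variation of 33.7% against 7.48% in KO. The WT mean of 44.4 ± 14.9 CPM was 1.94 times the KO mean of 22.9 ± 1.71 CPM (log2 -0.96, SE 0.225, edgeR adjusted p = 0.694, DESeq2 adjusted p = 0.00267). The log2 value was -0.68 without WT replicate 1, its highest library, and -1.17 without WT replicate 2, its lowest in WT.

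Zc3h12d encodes Regnase-4, which is expressed mainly in lymphocytes (NCBI Gene 237256, chromosome 10, 7832470 to 7870396, plus strand). It was at 8.83, 5.64 and 7.48 CPM in WT and at 7.84, 6.98 and 6.6 CPM in KO, with the KO values inside the WT range (log2 -0.03, SE 0.186, edgeR adjusted p = 0.972). A set of 11 T and NK cell markers summed to between 129 and 167 CPM in WT and between 166 and 232 CPM in KO, and 5 B cell markers to between 1.46 and 1.68 CPM and between 0.986 and 2.73 CPM. Their part in the Zc3h12d level was not tested. Zc3h12b, on the X chromosome, had 6, 7 and 6 counts in WT and 4, 6 and 13 counts in KO, 42 in all, and was not tested for that reason.

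Zfp36 encodes tristetraprolin, the founding member of its family and the main brake on Tnf mRNA in macrophages (NCBI Gene 22695, chromosome 7, 28376784 to 28380253, minus strand). It was at 967, 990 and 968 CPM in WT and at 892, 1169 and 1084 CPM in KO. The WT libraries were nearly equal, and the KO libraries lay on both sides of them (975 ± 13 and 1048 ± 142 CPM, log2 0.10, SE 0.0986, edgeR adjusted p = 0.838). The log2 value was 0.21 without KO replicate 1 and 0.02 without KO replicate 2. Zfp36l1, a paralog with the same pair of zinc fingers, was at 387, 405 and 379 CPM in WT (NCBI Gene 12192, chromosome 12, 80107754 to 80113013, minus strand). In KO it was at 405, 457 and 379 CPM. These groups overlapped as well (log2 0.08, SE 0.0827, edgeR adjusted p = 0.843), and without KO replicate 2, its highest library, the log2 value was 0.0062.

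Zfp36l2 is the third zinc finger paralog and is known for its roles in lymphocyte development and haematopoiesis (NCBI Gene 12193, chromosome 17, 84183931 to 84187947, minus strand). It was at 243, 322 and 300 CPM in WT and at 369, 425 and 368 CPM in KO. All KO libraries lay above all WT libraries, and WT replicate 1 was the lowest. The means were 288 ± 40.4 CPM for WT and 387 ± 32.8 CPM for KO, a ratio of 1.34 that did not pass the test (log2 0.43, SE 0.109, edgeR adjusted p = 0.694, DESeq2 adjusted p = 0.0844). Without WT replicate 1 the log2 value was 0.32, and without WT replicate 2 it was 0.52. Its share of the ZFP36 family's level per length was 14.4% to 17.8% in WT and 19.2% to 21% in KO. Zfp36, Zfp36l1 and Zfp36l2 each overlap an annotated noncoding gene on the opposite strand, and no source used here says whether the counting used the strand, so their reads cannot be told apart from those of the partner. Of the other members, only Zc3h12a overlaps no annotated gene. Zc3h12b and Zc3h12c overlap a gene on the opposite strand, Zc3h12d on both strands, and Rc3h1 and Rc3h2 on the same strand.

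The Roquin genes differed little. Rc3h1, which encodes Roquin-1, a repressor of Icos mRNA in T cells, was at 71.3, 80.0 and 72.6 CPM in WT and at 82.5, 79.4 and 84.6 CPM in KO (NCBI Gene 381305, chromosome 1, 160906418 to 160974978, plus strand). Only KO replicate 2 fell inside the WT range (log2 0.14, SE 0.0727, edgeR adjusted p = 0.725). Rc3h2, which encodes the paralog Roquin-2, was at 26.3, 31.7 and 32.1 CPM in WT and at 32.8, 32.6 and 27.1 CPM in KO (NCBI Gene 319817, chromosome 2, 37370069 to 37422903, minus strand). The groups overlapped, and the log2 value of 0.04 (SE 0.111, edgeR adjusted p = 0.951) changed sign when WT replicate 1 or KO replicate 1 or 2 was left out.

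**Figure D2:**
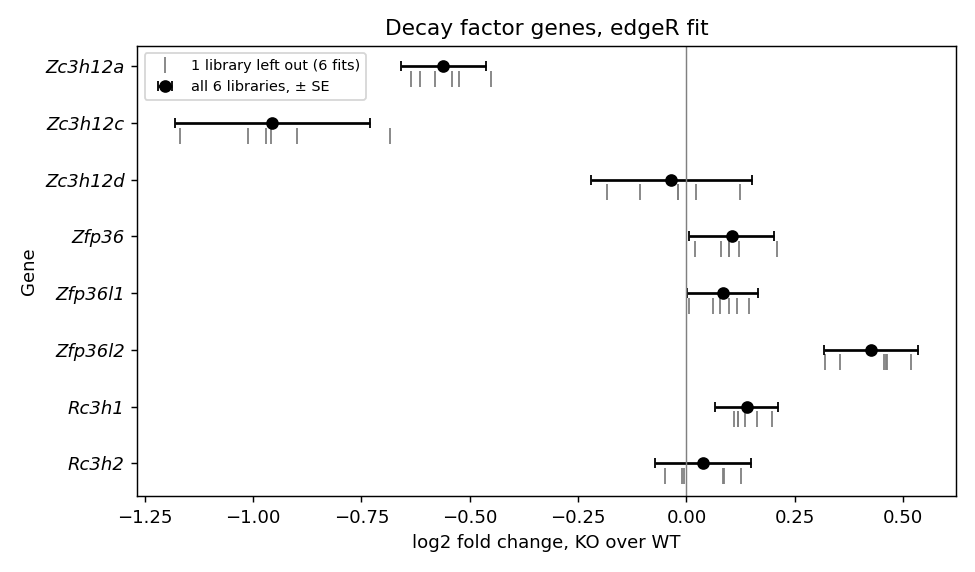
Log2 fold change of KO over WT for the 8 tested members (black points, bars ± SE of the edgeR fit), with grey ticks for the 6 fits that each leave out 1 library. Zc3h12a, Zc3h12c and Zfp36l2 stay on one side of 0 in every fit, and the ticks of Zc3h12d and Rc3h2 fall on both sides.

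Zc3h12a and Zfp36l2 were the neighbours whose order differed between the genotypes. Per length, Zc3h12a was at 113, 94.6 and 87.9 CPM per kilobase in the WT libraries, where Zfp36l2 was at 68.9, 91.1 and 84.9. In the KO libraries Zc3h12a was at 64.9, 71.6 and 63.7 and Zfp36l2 at 105, 120 and 104. Zc3h12a was thus the higher of the pair in all 3 WT libraries, by a small margin in replicates 2 and 3, and the lower in all 3 KO libraries. Both genes were chosen with this comparison known, so the change of order between the genotypes was not tested.

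**Figure D3:**
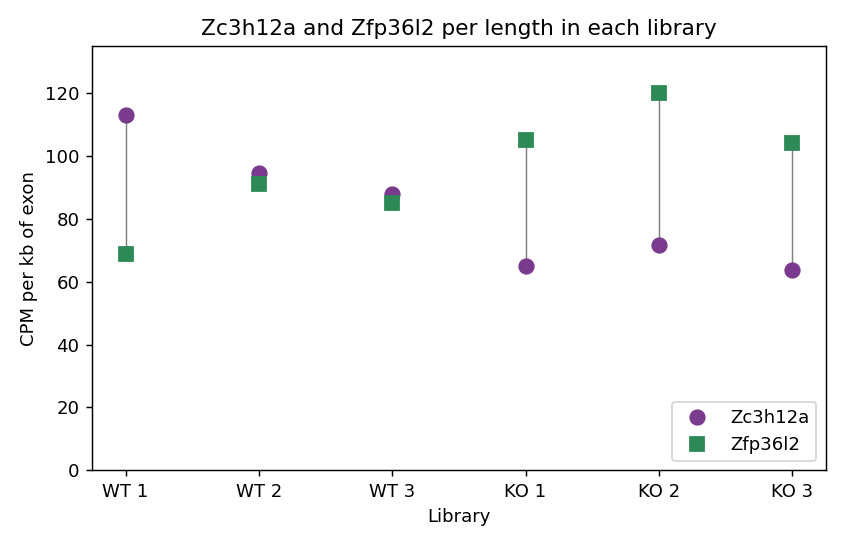
Level per length (CPM per kilobase of exon) of Zc3h12a (purple circles) and Zfp36l2 (green squares) in each library, joined by a grey line. The circle lies above the square in the WT libraries, and below it in the KO libraries, from 63.7 to 71.6 against 104 to 120.

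The genes whose pattern over the 6 libraries lay nearest to Zc3h12a were, in order, Tlr2, Nlrp3, Birc3, Rel and Htra4. Likeness was the root mean square difference of centred log2 CPM, and was 0.077 to 0.104 for these 5. The ranking held 8444 other genes of at least 10 CPM. Provisional symbols, those of Gm plus a number or with the suffix Rik, had been removed beforehand. These 5 are therefore the nearest among the genes ranked. Tlr2 is a receptor for bacterial lipoproteins, Nlrp3 an inflammasome sensor, Birc3 a ubiquitin ligase of NF-κB signalling and Rel an NF-κB subunit. Tlr2 was at 987, 808 and 820 CPM in WT and at 625, 708 and 614 CPM in KO, highest in WT replicate 1 as Zc3h12a was. None of the 5 passed (edgeR adjusted p of 0.694 or 0.701), and their likeness is a description over 6 libraries. Among the other members, Zc3h12c ranked 3064 in likeness and Zfp36l2 8288 of 8444. The measure counts the size of a deviation as well as its direction, so a low rank does not mean an unlike direction. Zc3h12c was at 0.933, -0.065 and 0.481 in WT and at -0.445, -0.344 and -0.56 in KO. Zc3h12a was at 0.48, 0.229 and 0.123 in WT and at -0.315, -0.174 and -0.343 in KO. Their signs differed only in WT replicate 2.

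**Figure D4:**
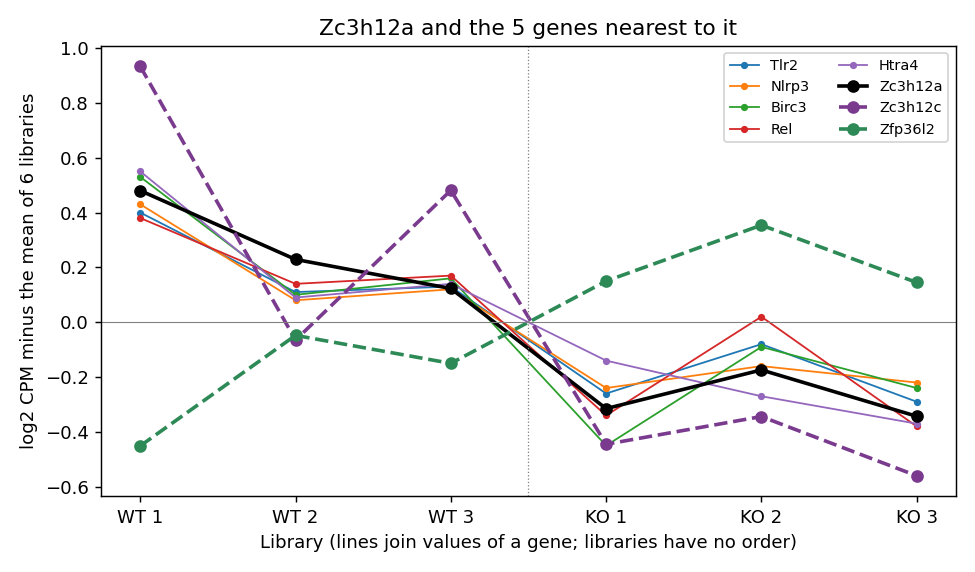
Log2 CPM minus the mean of the 6 libraries for Zc3h12a (black), the 5 ranked genes nearest to it (thin lines), Zc3h12c (purple, dashed) and Zfp36l2 (green, dashed). Zc3h12a and its nearest genes lie above 0 in WT and, apart from Rel at 0.02 in KO replicate 2, below 0 in KO, while Zfp36l2 lies below 0 in WT and above it in KO. The 5 genes were picked for their likeness to Zc3h12a, so their placement follows from that choice.

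The decay machinery that the members recruit showed little difference between the genotypes. Of 19 genes of the CCR4-NOT and PAN deadenylases and their adaptors, 11 had a positive log2 fold change, with a median of 0.03. The members of that list with the smallest p were Btg2 (log2 0.28, SE 0.111), Tob1 (0.56, SE 0.224), Btg1 (0.16, SE 0.0852) and Tob2 (0.12, SE 0.0695), which are the antiproliferative adaptors of the deadenylase and not its core subunits. Tob1 was at 50.5, 103 and 80.5 CPM in WT and at 105, 127 and 111 CPM in KO, again with WT replicate 1 lowest. In this list 3 genes lay above the WT range in every KO library and 2 below it, where 6.11% and 6.3% of all tested genes did. The 2 below were the CCR4-NOT subunits Cnot6 (-0.09, SE 0.065) and Cnot9 (-0.07, SE 0.0641). The scaffold Cnot1 was at 214 ± 1.91 and 203 ± 13 CPM. Of 11 decapping and 5′ decay genes 7 were positive (median 0.02). Dcp2, the decapping enzyme (-0.17, SE 0.0843), Xrn1, the 5′ exonuclease (-0.10, SE 0.073), and Ddx6, a decapping helicase (-0.07, SE 0.0635), were lower in every KO library, as were 6.3% of all tested genes. For Xrn1 the groups nearly met, at 43.9 CPM in KO replicate 1 and 44.2 CPM in WT replicate 1. Edc4, a decapping scaffold, was at 0.17 (SE 0.101). Upf1, the helicase that works with Regnase-1, was at 102 ± 4.69 and 114 ± 12.9 CPM (0.16, SE 0.09), and 9 of 10 genes of the nonsense-mediated decay list were positive (median 0.03). Of its other members, Smg9 was at 0.12 (SE 0.0886) and Upf3b at 0.10 (SE 0.133). Of 15 exosome genes 6 were positive (median -0.02), with Ttc37 at -0.14, Exosc4 at 0.14, Dis3 at -0.11 and Skiv2l2 at -0.11.

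Regulators of the members' proteins were also close between the genotypes. Of 29 kinases, proteases and partners, 18 were negative on the log2 scale, from -0.28 to 0.12 (median -0.04). Mapkapk2, the kinase that inactivates tristetraprolin, had a mean of 414 ± 54.5 CPM for WT and 370 ± 32.6 CPM for KO (log2 -0.16, SE 0.104). Malt1, the protease that cleaves Regnase-1 and the Roquins, was at 372 ± 23.4 and 355 ± 57.9 CPM (-0.07, SE 0.111). Tank, an adaptor of NF-κB signalling, was at -0.17 (SE 0.0915), Traf6, a ubiquitin ligase, at -0.13 (SE 0.0843) and Ywhaz, a 14-3-3 protein, at 0.12 (SE 0.0791). Of 16 other binders of AU-rich elements and stem-loops, 7 were positive (median -0.02). Of these, 1 lay above the WT range in every KO library, Arid5a, which protects Il6 mRNA (0.22, SE 0.0931). Below it in every KO library lay 3: G3bp1, a stress granule protein (-0.17, SE 0.0684), Ybx1 (-0.11, SE 0.0693) and Elavl1 (-0.06, SE 0.0647). Over all tested genes 6.11% lay above and 6.3% below. Tia1 was at 0.16 (SE 0.107) with overlap. Of 9 tested genes with related NYN or CCCH domains, 4 were positive, with N4bp1 at -0.26 (SE 0.122), Khnyn at 0.17, Zc3h7a at 0.21 and Zc3hav1, the zinc finger antiviral protein, at -0.05. Zfp36l3, the further rodent paralog of the ZFP36 family, had 0 counts in 5 libraries and was not tested.

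edgeR called 0 of the 154 tested genes of all these lists together with the targets and immediate early genes that follow. At an unadjusted p under 0.05, 13 were higher and 12 lower, and DESeq2 called 4. Over all 12136 genes, 3.86% were higher and 3.06% lower at that p.

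Among the listed mRNAs known as targets of the members, more were below 0 than above it. Of 15 tested Regnase-1 targets, 9 were negative on the log2 scale (median -0.18), as were 13 of 20 tristetraprolin targets (median -0.20) and 7 of 12 Roquin targets (median -0.12). Over all 12136 tested genes, 6094 were negative and the median was -0.000877. The lists share genes such as Cxcl1, Ptgs2, Il6 and Tnf, and they were written with earlier results of these data known, so none is independent evidence. The medians depended on single libraries: the tristetraprolin list was at -0.0536 without WT replicate 3, -0.0814 without WT replicate 1, -0.0873 without KO replicate 1 and -0.318 without WT replicate 2. The Regnase-1 list was at -0.0979 without KO replicate 1 and -0.114 without KO replicate 2, and the Roquin list at -0.0689 and -0.191 without the same libraries.

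Cxcl1, with a nonamer shown above, was at 364, 289 and 294 CPM in WT and at 175, 138 and 217 CPM in KO, with the groups apart (log2 -0.84, SE 0.164, edgeR adjusted p = 0.694, DESeq2 adjusted p = 1.56e-04). Values differed among its close relatives. Cxcl2, with 4 nonamers, was at 1705 ± 79.1 and 1667 ± 24.1 CPM (-0.03, SE 0.0722), and Cxcl3, with 1, was at 138 ± 10.1 and 222 ± 74.2 CPM (0.69, SE 0.23). Il23a was low in all libraries and lower in KO, at 6.73, 1.21 and 2.69 CPM in WT and 0.831, 0.472 and 0.69 CPM in KO (-2.40, SE 0.63, edgeR adjusted p = 0.701, DESeq2 adjusted p = 0.0118). Ptgs2, the inducible cyclooxygenase, was at 2322, 1388 and 1616 CPM in WT and 1077, 1117 and 1323 CPM in KO (-0.60, SE 0.182). Plk3, a stress-responsive kinase with 2 nonamers, had the opposite sign, with 84.0, 118 and 126 CPM in WT and 161, 157 and 134 CPM in KO (0.47, SE 0.147).

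Among the targets with stem-loops, Rel was at 153, 130 and 132 CPM in WT and at 92.6, 119 and 89.7 CPM in KO (-0.46, SE 0.116). Nfkbiz was at 721, 334 and 445 CPM in WT and at 246, 287 and 252 CPM in KO (-0.93, SE 0.248), with WT replicate 1 far above the others. Tnf was at 129, 64.8 and 87.3 CPM in WT and at 57.1, 70.8 and 65.7 CPM in KO, and these groups overlapped (-0.54, SE 0.224). Other targets had no stem-loop of the searched form. Tnfaip3, the ubiquitin-editing enzyme A20, with 1 nonamer, was at 804 ± 101 and 670 ± 84.4 CPM (-0.26, SE 0.114). Il12b, a subunit of interleukin 12, was near the low end at 2.89 ± 0.614 and 1.19 ± 0.638 CPM (-1.28, SE 0.382). Il6 was at 24 ± 15.2 and 12.3 ± 4.51 CPM (-0.96, SE 0.463). Icos and Tnfrsf4, which have stem-loops, and Ctla4, which has none, are lymphocyte mRNAs and had positive values of 0.38, 0.56 and 0.46, beside the T and NK marker sums given above. The most positive target, Lcn2, a neutrophil granule protein with neither element, was under 1 CPM in every library, at 0.237 ± 0.242 CPM for WT and 0.51 ± 0.311 CPM for KO (1.10, SE 0.784). The edgeR adjusted p of each target named here was 0.694 or more.

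**Figure D5:**
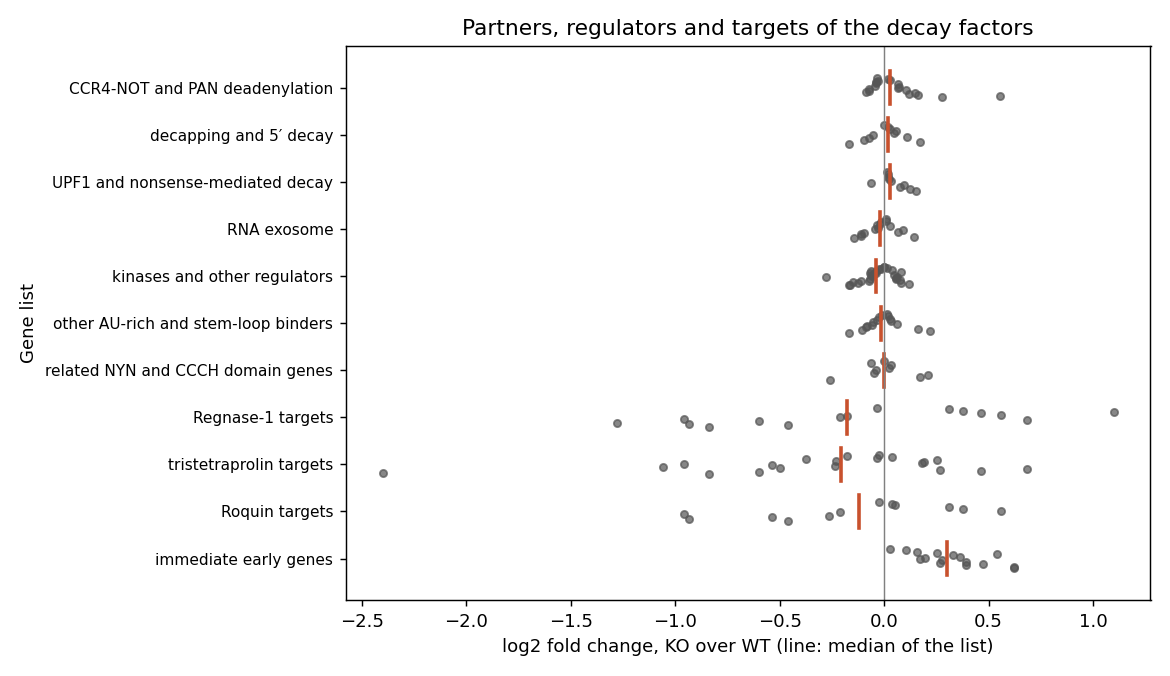
Log2 fold change of KO over WT for each tested gene of 11 lists (grey points) with the median of the list (red line). The machinery and regulator lists crowd around 0, and the 3 target lists spread from -2.40 to 1.10 with medians of -0.18, -0.20 and -0.12. The 16 genes of the immediate early list all lie above 0.

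Zfp36 is itself a rapid-response gene, and the genes of a list of immediate early genes had the same sign as Zfp36l2. All 16 tested genes of that list had a positive log2 fold change, with a median of 0.30, where 6042 of all 12136 genes were positive. Of the 16, 9 had an unadjusted p under 0.05, where 3.86% of all genes were higher at that p. edgeR called 0 and DESeq2 called 2, the heat shock genes Hspa1a and Hspa1b. This list too was written with earlier results of these data known, so its signs and p-values are a description and no independent evidence. It includes the 2 heat shock genes and is not the whole class. Rapid-response genes outside it stand among the targets above with either sign, such as Nfkbiz and Ptgs2 (negative) and Plk3 (positive). With WT replicate 1, WT replicate 3 or KO replicate 2 left out, 15 of the 16 were positive, and the median ran from 0.201 without WT replicate 1 to 0.425 without WT replicate 2. Their sum was 9055, 12775 and 10913 CPM in WT and 12726, 14579 and 12997 CPM in KO (two-sided exact permutation p = 0.2), lowest in WT replicate 1, where Zfp36l2 was lowest too. Hspa1a was at 0.62 (SE 0.11), Hspa1b at 0.62 (SE 0.148), Jun at 0.39 (SE 0.106) and Klf2 at 0.47 (SE 0.142), with edgeR adjusted p of 0.438 to 0.701. Neutrophil markers summed to between 52.6 and 69.3 CPM in WT and between 87.1 and 149 CPM in KO (exact permutation p = 0.1, the smallest that 3 against 3 allows). Of the 10 markers measured, none was at 0 in all libraries. The filter on low counts passed 6 of them, and 5 of those 6 had a positive log2 fold change. The part of the immediate early genes or the neutrophil markers in the member and target values was not tested.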

How the data were processed

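The authors deposited raw read counts per gene for 6 mRNA libraries. Per the submitters' processing notes, the tools were Trimmomatic, HISAT2, Cufflinks and HTSeq and the build was mm10 (GRCm38). Their versions and roles, the annotation, the strand setting and the treatment of multiply mapped reads are not given in the sources used here. Of 21878 genes, 12136 passed filterByExpr (minimum count 10, minimum total 15). edgeR 4.0.16 (R 4.3.3) compared KO with WT by a robust quasi-likelihood test with TMM factors, and p-values were adjusted over all tested genes by Benjamini-Hochberg. The fit was tested on simulated data. Levels are CPM on TMM-scaled totals, given as mean ± SD. Lengths, coordinates and 3′ UTRs were taken from GENCODE M21 (GRCm38), which matched 94.5% of symbols.

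Named genes are the 9 members, Trmt61a, up to 4 genes of smallest p in each list and the 5 ranked genes nearest to Zc3h12a. Cnot1, Cnot6, Cnot9, Malt1, Elavl1, Cxcl2, Cxcl3, Nfkbid, Icos, Tnfrsf4, Ctla4, Lcn2 and Il6 were added after their values were seen. A gene that the rule names is not reported here. Members and lists were chosen with earlier results of these data known. Alternatives were other scalings, filters, DESeq2 1.42.0, limma-voom (limma 3.58.1), a replicate block and leaving out each library.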

Additional observations from a re-analysis of the deposited data

How the results depend on the processing

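The number of genes called over the whole table was 2, and 1 with RLE factors, upper-quartile factors, library totals alone, no filter, a minimum count of 5 or limma-voom, 0 with at least 1 CPM in 3 libraries, and 29 with DESeq2. Leaving out 1 library gave 0 to 5. No member was called in any of these except with DESeq2, which called 2 members (Zc3h12a with a log2 value of -0.563, and Zc3h12c) and 4 genes of the partner and target lists (0 with edgeR). Zc3h12a lay between -0.636 and -0.451 with a library left out. With the replicate number as a block 1 gene and 0 members were called; same-numbered libraries did not deviate together (correlations of -0.109 to -0.057), and no library correlated best with its own number. Zc3h12d, from -0.183 to 0.123 over the libraries left out, changed sign to 0.123 without WT replicate 1 and 0.0232 without KO replicate 3, and Rc3h2, from -0.0485 to 0.126, to -0.0485 without WT replicate 1, -0.0105 without KO replicate 1 and -0.0049 without KO replicate 2; the cause was not tested. For 2 marker sets the KO minus WT difference had another sign as mean centred log2 CPM than as a sum of CPM. The dendritic difference was -0.567 CPM as a sum and 0.0237 on the log2 scale, and the endothelial one 9.64 CPM and -0.0018. The scales have unlike units, and the dendritic sums averaged 194 CPM in both genotypes. The leave-one-out medians of the lists were chosen after seeing the data. At 42 counts in all, Zc3h12b is too shallow for a comparison.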

Other observations

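The number of binding elements in a 3′ UTR went with almost no difference in log2 fold change over the transcriptome. The 10726 tested genes without the nonamer TTATTTATT had a median log2 fold change of KO over WT of -0.0021, the 745 genes with 1 copy had 0.0155, and the 215 genes with 2 or more copies had -0.0111. For the stem-loops with a TAT or TGT loop the medians were -0.0017 in 10228 genes without, 0.0042 in 1245 genes with 1 and 0.0094 in 213 genes with 2 or more. The tristetraprolin targets held the nonamer in 12 of 20 genes (60% against 8.2% of all tested genes), and the Roquin targets held a stem-loop in 9 of 12 (75% against 12.5%). These medians are a description, and no test was made on them.

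Of the 2 stem-loop stretches shared by the Roquin 3′ UTRs, the one found in 6 genes also stood in those of Adamts6, Kctd20, Mppe1 and Pxdn. These genes were not compared further.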
